A study of Mus musculus with 8 samples.

Results

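The module studied here comprised 35 genes of glucose uptake, glycolysis and the transcriptional response to low oxygen. They were taken by symbol from the 32285 genes counted in each of 4 droplet libraries. The libraries held cells sorted as CD45+CD11b+Ly6Chi, which is how monocytic myeloid-derived suppressor cells (MDSCs) are recognised, from MC38 tumors or from blood of the same kind of tumor-bearing mice. MC38 is a colon carcinoma line of the C57BL/6 mouse. Tumors were left unirradiated (control) or received 20 Gy of ionizing radiation (IR) as 1 dose, and cells were collected 3 days after it. Wild-type (WT) mice carried floxed Ythdf2 without Cre, and conditional knockout (cKO) mice were Lyz Cre+; Ythdf2 fl/fl, so that both genotypes had floxed alleles and Cre was driven from the Lyz2 locus, which is active in many myeloid cells. Per the study's methods, the animals were male and female adults on the C57BL/6J background. Each library mixed both genotypes, which were told apart by hashtag antibodies (B0301 on WT and B0302 on cKO cells). Cells of 5 mice were pooled for each of the 8 groups. Every group was therefore 1 pool in 1 library, no spread between animals could be estimated, and no test was made. The intervals below are 95% exact intervals that cover counting error only.

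Glycolysis splits glucose into pyruvate in the cytosol and yields ATP without oxygen. When oxygen is scarce, the prolyl hydroxylases (the Egln genes) no longer mark the alpha subunit of the hypoxia-inducible factor (HIF) for destruction, and HIF then binds a short DNA core near genes for glucose uptake, most glycolytic steps, lactate production, mitophagy and matrix synthesis. In myeloid cells, HIF and glycolytic flux also rise with inflammatory activation in normal oxygen, and tumor-infiltrating macrophages and MDSCs are a known site of both.

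Gene counts per library, in unique molecular identifiers (UMIs, 1 for each captured mRNA 3′ end), came to 87703837 and 81601307 for the tumors (control and IR) and 51731085 and 51653956 for the blood. After filtering, 26512 cells remained, between 2136 and 4409 per group, with a median of 6024 to 8628 UMIs per tumor cell and 2942 to 3375 per blood cell. Each tumor matrix held droplets of the other, since 7325 of the 7327 untagged barcodes of the control tumors were tagged in the irradiated ones, and 4955 of 4958 the other way. A minimum of 20 hashtag UMIs removed them and left 31 kept barcodes shared by the tumor libraries and 6 to 21 shared by any other pair. UMIs of Ythdf2 went against the genotype label, with 33.7 to 55.7 counts per 1000000 gene UMIs of the group (CPM) in cells labelled WT and 306 to 374 CPM in cells labelled cKO. Lyz2 was lower under the cKO label (83.7 to 138 CPM) than under the WT label (5613 to 14320 CPM). A count at the 3′ end does not show whether the floxed exons are present. WT and cKO below therefore mean cells so labelled by hashtag. Cell classes were named from fixed markers, and in blood 64.8% to 68.9% of the cells were neutrophil-like although the sort was for Ly6Chi cells. Summed UMIs of 14 neutrophil markers were 70170 to 106500 CPM in blood but 444 and 388 CPM in control tumors and 2348 and 1612 CPM in irradiated ones. Those of 14 macrophage markers were 432 to 920.1 CPM in blood and 7591 to 10340 CPM in tumor. In sums over all cells of a group, fewer cells of a type and less RNA per cell cannot be told apart.

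Most members had a match to the DNA core of HIF in the promoter windows searched. The core searched was ACGTG or GCGTG on either strand, in windows of 300 bases from 250 before to 50 after each transcription start (RefSeq, build GRCm38.p6). Promoters were found for 32 of the 35 members, and those of Slc2a3, Ndrg1 and Bnip3l were not in the table used. At least 1 window of 30 of these 32 genes (93.8%) held the core, against 12628 of 27025 genes (46.7%) in the table, and 41 of 48 member windows (85.4%) did, against 14380 of 32851 (43.8%). All genes of the table were not matched to the members for CG content or expression, and both forms of the core contain CG. The windows of Gpi1 and Tpi1 held none, and that of Pfkfb4, lower in tumor in all comparisons below, held 1. CACGTG contains the core on both strands, so the letters overlap with those of an E-box. A match of 5 letters is a description of the sequence and not a binding site. The stretches before the start of 4 members from different branches of the module are printed here with the cores in capitals, 5′ to 3′ on the gene's strand, because their levels differed between tumor and blood in all comparisons below. They are Pgk1, an enzyme of lower glycolysis (chrX:106186850-106187099, plus strand), Egln3, an oxygen-sensing hydroxylase (chr12:54203875-54204124, minus strand), Bnip3, a mitophagy receptor (chr7:138909520-138909756, minus strand), and P4ha1, a collagen hydroxylase subunit (chr10:59323046-59323295, plus strand).
Pgk1: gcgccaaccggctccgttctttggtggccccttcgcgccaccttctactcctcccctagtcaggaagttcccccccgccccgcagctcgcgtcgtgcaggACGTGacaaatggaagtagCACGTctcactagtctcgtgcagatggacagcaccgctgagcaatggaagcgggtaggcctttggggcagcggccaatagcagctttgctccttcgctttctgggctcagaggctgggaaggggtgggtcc
Egln3: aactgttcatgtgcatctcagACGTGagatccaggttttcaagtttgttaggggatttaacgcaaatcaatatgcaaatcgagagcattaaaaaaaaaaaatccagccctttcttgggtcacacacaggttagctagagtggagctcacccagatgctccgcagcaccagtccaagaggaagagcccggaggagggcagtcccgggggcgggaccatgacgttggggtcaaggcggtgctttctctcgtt
Bnip3: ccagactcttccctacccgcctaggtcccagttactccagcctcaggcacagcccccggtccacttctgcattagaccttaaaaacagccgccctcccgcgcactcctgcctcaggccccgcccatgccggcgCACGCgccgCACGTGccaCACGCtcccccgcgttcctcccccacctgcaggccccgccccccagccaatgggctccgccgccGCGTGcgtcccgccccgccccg
P4ha1: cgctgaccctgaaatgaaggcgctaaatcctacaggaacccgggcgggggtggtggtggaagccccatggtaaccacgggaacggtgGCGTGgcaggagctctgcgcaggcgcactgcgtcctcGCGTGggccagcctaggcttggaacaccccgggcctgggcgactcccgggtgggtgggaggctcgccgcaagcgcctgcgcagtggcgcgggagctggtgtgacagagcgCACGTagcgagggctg

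These stretches were unlike in number and direction of cores. Pgk1 held 2 cores in opposite orientation, and Egln3 held 1 far from the start. In Bnip3 there were 5, of which 2 overlapped in CACGTG, and P4ha1 held 3.

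The levels of the 35 members spanned from no UMI at all to over 2000 CPM. Gapdh was the highest in all 8 groups, and Adm, the vasoactive peptide adrenomedullin, had no UMI in any blood group. Levels are given below in CPM of gene UMIs, in the order control WT, control cKO, IR WT and IR cKO. Since the libraries counted 3′ ends, they needed no scaling for transcript length. The 95% interval of a level reached 0.798% to 1.96% to either side of it for the 47 values above 10000 UMIs, 2.03% to 6.21% for the 134 values above 1000 and up to 10000 UMIs, and 6.3% to 19.9% for the 72 values above 100 and up to 1000 UMIs. A member was called higher or lower where its ratio between groups reached 2 times in either direction (log2 ratio of at least 1) and the groups together held at least 100 UMIs of it. Gapdh, Tpi1, Ldha, Pgk1, Pgam1 and Eno1 have processed copies elsewhere in the genome, and how reads were divided between copies was not tested. Slc2a1, Slc2a3, Pfkfb3, Pkm and Hif1a overlap another annotated gene on the same strand.

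**Figure D1:**
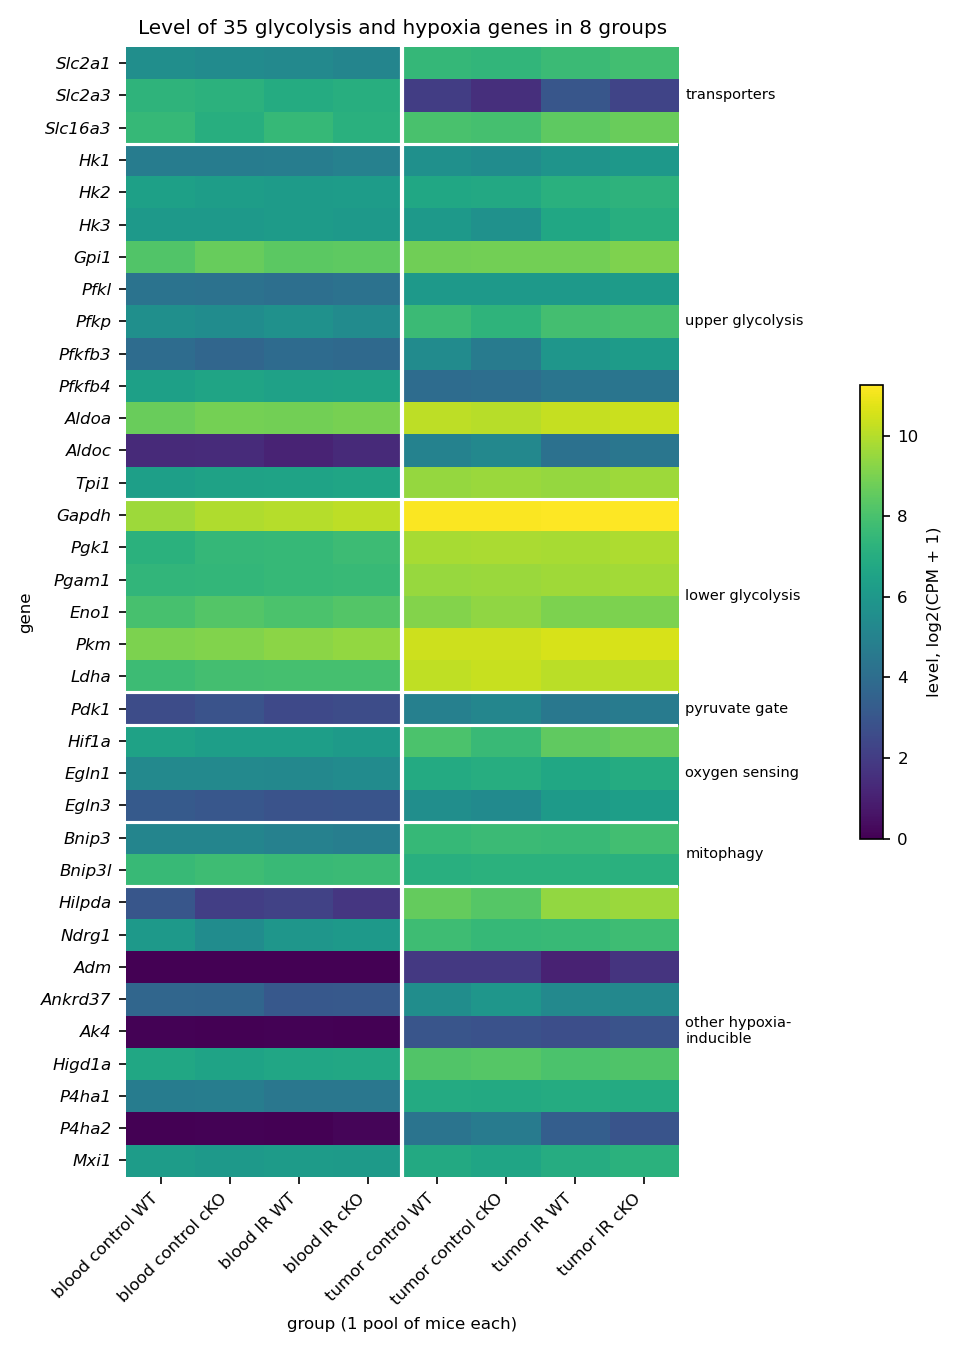
Level of each of the 35 members (rows, ordered by role) in each of the 8 groups (columns), colored by log2(CPM + 1). Gapdh, Pkm, Aldoa and Ldha are the brightest in tumor, the 4 tumor columns are brighter than the 4 blood columns for most members, and Slc2a3 and Pfkfb4 show the opposite.

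Between tumor and blood, most members differed by more than 2 times, and the majority of these were higher in tumor. Of 34 members measured, 25, 25, 25 and 28 were higher in tumor (control WT, control cKO, IR WT and IR cKO), where 19.5%, 27.2%, 15.8% and 15.6% of all genes measured were higher. In each of the 4 comparisons 2 members were lower, beside 15.5%, 16.4%, 16.3% and 16.2% of all genes. The median log2 ratio of the members was 1.67, 1.83, 2.04 and 2.06, and that of all genes was 0.11, 0.22, -0.08 and -0.10. The 4 comparisons used separate groups. In all 4, 24 members were higher and 2 (Slc2a3 and Pfkfb4) were lower, against 10.3% and 10.9% of the 9827 genes measured in all of them. Ak4 and P4ha2 were counted among the higher members here and in each comparison. They held at most 2 UMIs in any blood group and reached the minimum of UMIs through tumor alone. Once measured, they could therefore only be called higher, and their calls add no separate evidence. Aldoc had too few UMIs in blood to be called lower in any comparison, and in WT could, once measured, only be called higher. Hilpda had too few in blood to be called lower in IR cKO. A further 7 members, Adm among them, had ratios above 0 in all 4 without the call in every one, and Bnip3l was below 0 in all 4. Scaling by trimmed means (TMM) moved the median of all genes by -0.15 in control cKO and by 0.12 in IR cKO and kept 22 of the 24 members, without Aldoa and Pfkfb3. Blood was mostly neutrophil-like cells and tumor was not. With the neutrophil-like clusters left out, a setting chosen after the data were seen, all 24 stayed higher, and Mxi1 and Slc16a3 joined them. With the clusters of non-myeloid classes left out, 22 of the 24 stayed higher, without Ak4 and P4ha2. Where tumor groups are said below to lie apart from every blood group, the share of all genes that did so is not given.

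**Figure D2:**
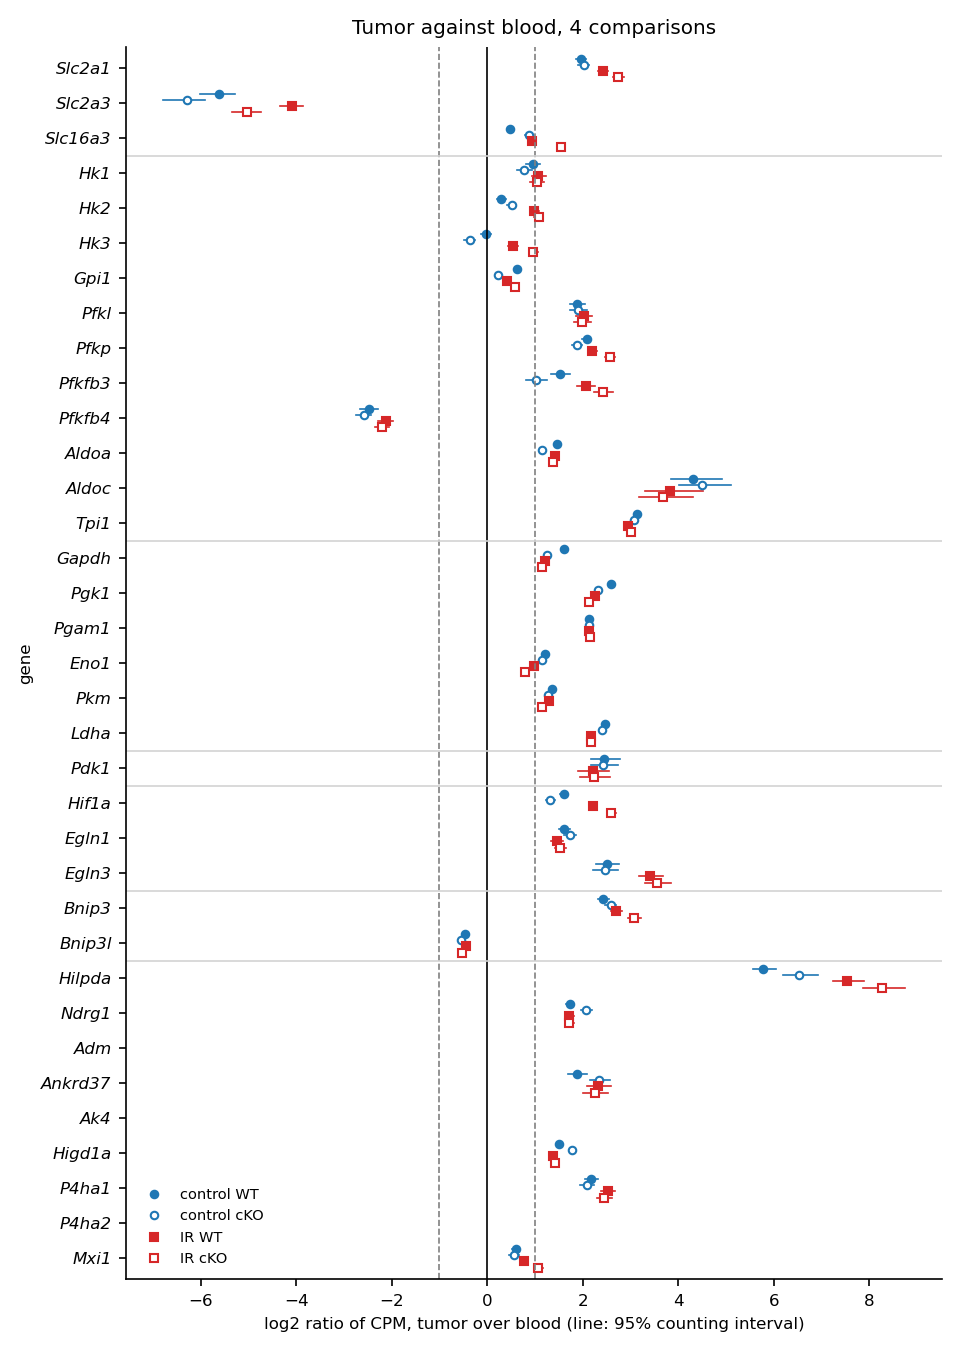
Log2 ratio of tumor to blood for each member (rows, by role) in the 4 comparisons (symbols), with 95% counting intervals as bars and the 2-fold limits as lines. Most members lie to the right of 1 in all 4 comparisons, Hilpda lies farthest right among members with blood UMIs in every group, and Slc2a3 lies farthest left.

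The transporters did not move together. Slc2a1 encodes GLUT1, the widely expressed glucose carrier, and stood at 45.8, 41.7, 38.0 and 34.3 CPM in blood and at 179, 169, 205 and 229.8 CPM in tumor. Every tumor group was above every blood group, with log2 ratios of 1.96, 2.02, 2.43 and 2.74 (counting intervals within 1.86 to 2.87). Slc2a3 encodes GLUT3, a carrier with high affinity for glucose (chr6:122727809-122801640, minus strand). It showed the reverse order, with 158, 152, 121 and 131 CPM in blood and 3.17, 1.89, 7.07 and 3.98 CPM in tumor, and log2 ratios of -5.62, -6.29, -4.09 and -5.02 (within -6.78 to -3.85). The tumor levels of Slc2a3 were close to its level in cell-free droplets of the same libraries, 5.30 CPM in control and 6.18 CPM in IR. Without the neutrophil-like clusters, its ratios were -2.64, -2.78, -2.21 and -1.86, and those of Slc2a1 were 3.08, 2.74, 3.15 and 3.5. Slc16a3 encodes MCT4, which exports lactate, and was higher in tumor by the same call in IR cKO alone, with log2 ratios of 0.49, 0.87, 0.94 and 1.54.

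In upper glycolysis, from glucose phosphorylation to triose phosphates, 6, 6, 7 and 8 of 11 members were higher in tumor and 1 was lower in each comparison. These counts include Aldoc, which had too few UMIs in blood to be called lower. Of all genes, 19.5%, 27.2%, 15.8% and 15.6% were higher and 15.5%, 16.4%, 16.3% and 16.2% lower. The hexokinases, which trap glucose as its phosphate, differed less. The log2 ratios of Hk1 were 0.95, 0.77, 1.07 and 1.04, those of Hk2 0.29, 0.52, 0.99 and 1.08 and those of Hk3 -0.02, -0.37, 0.54 and 0.96. Gpi1, the phosphoglucose isomerase, had ratios of 0.22 to 0.61 and was not called in any comparison. The phosphofructokinase step, the committed step of the pathway, differed more. Pfkp, the platelet-type subunit, stood at 47.8, 43.6, 50.9 and 42.6 CPM in blood and 203, 160.5, 233 and 254 CPM in tumor, with log2 ratios of 2.08, 1.88, 2.20 and 2.57. Pfkl, the liver-type subunit, stood at 18.2, 18, 16.5 and 17.9 CPM in blood and 67.5, 67.7, 67.1 and 71.0 CPM in tumor, with log2 ratios of 1.89, 1.91, 2.02 and 1.99. For both subunits the lowest tumor group was above the highest blood group.

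The bifunctional enzymes that set the allosteric activator of phosphofructokinase went opposite ways. Pfkfb3, a form with strong kinase activity, stood at 14.8, 12.2, 14.2 and 13.4 CPM in blood and 42.7, 25, 59.7 and 72.0 CPM in tumor, and its log2 ratios were 1.53, 1.03, 2.06 and 2.42 (within 0.81 to 2.62). Pfkfb4 stood at 82.8, 94.3, 86.2 and 89.7 CPM in blood and 14.9, 15.7, 19.7 and 19.6 CPM in tumor, and its ratios were -2.47, -2.59, -2.12 and -2.20 (within -2.76 to -1.97). Without the neutrophil-like clusters the ratios of Pfkfb4 were -1.52, -1.68, -1.01 and -1.11, so the difference was smaller and kept its direction. The aldolases cleave fructose bisphosphate. Aldoa, the main form in most tissues, stood at 408, 477, 459.5 and 496 CPM in blood and 1132, 1051, 1236 and 1291 CPM in tumor, with log2 ratios of 1.47, 1.14, 1.43 and 1.38. It was listed under a second identifier that held 2 UMIs in all groups together. Aldoc, a form best known from brain, was scarce in blood (1.51, 1.59, 1.19 and 1.56 CPM) and stood at 30.9, 36.7, 17.5 and 20.6 CPM in tumor, with log2 ratios of 4.31, 4.49, 3.83 and 3.68 (within 3.18 to 5.11). Tpi1, which interconverts the triose phosphates, had the largest ratios among the abundant enzymes, 3.14, 3.08, 2.95 and 3.02, from 80.5, 88.4, 92.7 and 97.6 CPM in blood and 710.4, 746, 717 and 789.7 CPM in tumor.

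The 6 members of lower glycolysis, from glyceraldehyde phosphate to lactate, were higher in tumor in 6, 6, 5 and 5 cases, and none was lower. Of all genes, 19.5%, 27.2%, 15.8% and 15.6% were higher and 15.5%, 16.4%, 16.3% and 16.2% lower. Gapdh, the dehydrogenase that yields NADH, stood at 777, 969, 1021 and 1111 CPM in blood and 2364, 2319, 2375 and 2445 CPM in tumor, and its log2 ratios were 1.61, 1.26, 1.22 and 1.14 (within 1.12 to 1.63). Pgk1, the first ATP-forming step, stood at 145, 181, 184 and 211 CPM in blood and 872, 899, 882 and 922 CPM in tumor, with ratios of 2.59, 2.31, 2.26 and 2.13. Pgam1, the phosphoglycerate mutase, stood at 170.5, 174, 182 and 189 CPM in blood and 744, 759.8, 796 and 835 CPM in tumor, with ratios of 2.12, 2.13, 2.13 and 2.15. For these 3 enzymes no blood group reached a tumor group. Eno1, the enolase, was the exception to the call, with ratios of 1.21, 1.14, 0.98 and 0.80. Pkm, the pyruvate kinase, stood at 524, 556, 634 and 685 CPM in blood and 1340, 1344, 1546 and 1524 CPM in tumor, with ratios of 1.35, 1.27, 1.28 and 1.15. Ldha, which turns pyruvate into lactate and restores NAD+, stood at 212, 239, 244 and 242 CPM in blood and 1174, 1260, 1095 and 1098 CPM in tumor, with ratios of 2.47, 2.40, 2.17 and 2.18 (within 2.12 to 2.52). Pdk1, the kinase that blocks entry of pyruvate into mitochondrial oxidation, stood at 5.18, 6.36, 4.66 and 5.18 CPM in blood and 28.7, 34.5, 21.7 and 24.7 CPM in tumor, with ratios of 2.46, 2.43, 2.21 and 2.24. Both enzymes that turn pyruvate away from the mitochondria were thus higher in every tumor group than in any blood group.

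All 3 members of oxygen sensing were higher in tumor in all 4 comparisons, as were 10.3% of the genes measured in all of them. Hif1a, the regulated subunit of HIF (chr12:73901375-73947530, plus strand), stood at 88.0, 77.8, 78.9 and 68.3 CPM in blood and 267, 195, 364 and 415 CPM in tumor, with log2 ratios of 1.60, 1.32, 2.21 and 2.60 (within 1.24 to 2.69). Its mRNA level says nothing of its protein, which is controlled mainly by degradation. Egln1, the main HIF prolyl hydroxylase, stood at 38.4, 38.1, 37.5 and 41.8 CPM in blood and 117, 127, 103 and 121 CPM in tumor, with ratios of 1.61, 1.73, 1.46 and 1.53. Egln3, a hydroxylase whose gene is itself induced by HIF, stood at 8.06, 7.31, 6.35 and 6.64 CPM in blood and 46.2, 40.8, 68.3 and 78.6 CPM in tumor, with ratios of 2.51, 2.47, 3.42 and 3.56 (within 2.22 to 3.84). The ratios of Hif1a and Egln3 were larger in the IR comparisons than in the control comparisons in both genotypes. The mitophagy receptors differed from each other. Bnip3 stood at 34.0, 33.9, 29.8 and 27.5 CPM in blood and 183, 204, 195 and 232 CPM in tumor, with ratios of 2.43, 2.58, 2.71 and 3.08. Its relative Bnip3l, which also clears mitochondria from maturing red cells, had ratios of -0.46, -0.55, -0.43 and -0.53 and was not called.

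Among the other hypoxia-inducible members, 7, 7, 7 and 8 of the 8 measured were higher in tumor. These counts include Ak4 and P4ha2, which had nearly no UMIs in blood and could only be called higher. Of all genes, 19.5%, 27.2%, 15.8% and 15.6% were higher. Hilpda, a lipid droplet protein that inhibits lipolysis (chr6:29272488-29275446, plus strand), stood at 6.98, 3.28, 3.70 and 2.43 CPM in blood and 387, 307, 695 and 761 CPM in tumor. No blood group came near a tumor group, and the log2 ratios were 5.78, 6.53, 7.53 and 8.26 (within 5.56 to 8.75). Its level in cell-free droplets was 503 and 772 CPM in the tumor libraries and 10.4 and 3.59 CPM in the blood libraries. Ndrg1, a stress-responsive gene of cell differentiation, stood at 65.1, 43.4, 58.5 and 64.5 CPM in blood and 217, 183, 193 and 213 CPM in tumor, with ratios of 1.73, 2.08, 1.72 and 1.72. Higd1a, a mitochondrial inner membrane protein, stood at 103, 90.03, 102 and 106 CPM in blood and 293, 309, 265 and 286 CPM in tumor, with ratios of 1.51, 1.78, 1.38 and 1.43. Ankrd37, a small ankyrin repeat protein known as a HIF target, stood at 12.2, 11.6, 7.67 and 7.72 CPM in blood and 45.4, 58.9, 38.8 and 37.1 CPM in tumor, with ratios of 1.89, 2.35, 2.33 and 2.26. P4ha1, a catalytic subunit of the collagen prolyl hydroxylase, stood at 25.7, 26.3, 20.8 and 21.3 CPM in blood and 116, 112, 119.5 and 117 CPM in tumor, with ratios of 2.17, 2.09, 2.52 and 2.45. For none of these 5 genes did the tissues overlap, and the share of all genes without overlap is not given. Mxi1, an antagonist of Myc, had ratios of 0.60, 0.57, 0.77 and 1.06 and was called in IR cKO alone.

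A group of 3 members was nearly without UMIs in blood, so that their ratios are imprecise. Where the blood group had no UMI, the fold is a lower bound against a floor of 3 UMIs in that group. Where it had 1 or 2, the ratio of the counts is given with its counting interval, so that values of the 2 kinds cannot be compared with each other. P4ha2, the other collagen hydroxylase subunit, had 390, 590, 189 and 163 UMIs in the tumor groups and 0, 1, 0 and 2 in the blood groups. It was at least 137-fold higher in control WT and at least 67.7-fold higher in IR WT, and the ratio was 469 (83.8 to 18500) in control cKO and 61.4 (16.7 to 511) in IR cKO. Ak4, an adenylate kinase of mitochondria, had 136, 147, 111 and 155 UMIs in the tumor groups and 1, 0, 1 and 0 in the blood groups. Its ratio was 143 (25.2 to 5680) in control WT and 119 (21.0 to 4750) in IR WT, and it was at least 38.9-fold higher in both cKO comparisons. Adm had 53, 62, 22 and 56 UMIs in the tumor groups and was at least 18.6-fold, 16.4-fold, 7.88-fold and 14.1-fold higher there. It stayed below the minimum of 100 UMIs and was not counted among the members called.

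Neutrophil-like cells were the only myeloid class with at least 50 cells of a genotype in both tissues, 330 WT and 246 cKO cells in tumor IR against 2639 and 2178 in blood IR. The cells were clustered without the members, so that these did not define the classes. Of the tumor IR cells, 323 of 330 in WT and 244 of 246 in cKO came from 1 cluster (Ccl3, G0s2, Ccl4 and Acod1 among its leading genes, 4 of 14 neutrophil markers raised, namely Cxcr2, G0s2, Hdc and Il1r2) and the others from clusters of the blood cells, and nearly all blood cells came from 4 others, led by Slc40a1, Cxcr2 and Csf3r, by S100a8, S100a9 and Retnlg, by the interferon-induced Ifit1, Ifit3 and Slfn4, and by Ngp, Ltf and Camp. Within the class 17 of 30 members were higher in tumor in WT and 18 of 29 in cKO, where 11.2% and 12.4% of all genes were higher, and 3 were lower in each, where 45.2% and 41.0% of all genes were lower. The member medians were 1.55 and 1.69, and those of all genes -0.84 and -0.71. Hilpda stood at 4.36, 1.39, 2.0 and 0.312 CPM in blood neutrophil-like cells and at 3134 and 2473 CPM in those of irradiated tumors (log2 ratios 10.46 (9.91 to 11.42) in WT and 12 (11.10 to 16) in cKO). It had few UMIs in these blood cells and reached the minimum of UMIs through tumor. Once measured, Hilpda could therefore only be called higher here, and its calls add no separate evidence. Egln3 stood at 15.2 and 17.2 CPM in blood IR and 358 and 305 CPM in tumor IR (log2 ratios 4.53 and 4.13). Slc2a1 stood at 86.5, 68.5, 64.7 and 60.9 CPM in blood and 312 and 293 CPM in tumor IR (log2 ratios 2.27 and 2.26). So the glucose carrier, the sensor and the lipid droplet gene were all higher in the tumor cells of the class. The lower members were Slc2a3 (391, 379, 311 and 365 CPM in blood, 147 and 111 CPM in tumor IR), Pfkfb4 (148, 166, 167 and 180.2 and 25.8 and 29.3 CPM) and Gpi1, with log2 ratios of -1.08 and -1.72, -2.69 and -2.61, and -1.18 and -1.21. Gpi1 was not lower in the sums over all cells.

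Slc2a3 and Pfkfb4 were highest in neutrophil-like cells among the blood classes. In monocyte-like blood cells Slc2a3 stood at 3.71, 4.79, 3.75 and 3.85 CPM, and Pfkfb4 at 43.3, 46.8, 37.4 and 40.3 CPM. Monocyte-like blood cells also had little Hilpda (9.22, 4.14, 4.66 and 3.66 CPM) and Slc2a1 (18.2, 23.4, 21.7 and 20.6 CPM). Their Gapdh stood at 863, 989.5, 1195 and 1270 CPM and their Ldha at 207, 236, 251 and 258 CPM. Macrophage-like tumor cells were well above these levels, with Gapdh at 2859, 2437, 3140 and 3011 CPM, Ldha at 1174, 1073, 1326 and 1294 CPM and Slc2a1 at 227, 188, 263 and 293 CPM. No monocyte-like class of the tumor reached 50 cells in the named clusters, so monocyte-like cells could not be compared across tissues. In the tumor groups 38.8%, 23.8%, 55.5% and 50.6% of the cells were in no named class.

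Among the named tumor classes, which leave out the unnamed cells, the highest levels were divided between several. Macrophage-like cells held the highest level of 18, 16, 13 and 24 of the 35 members in the 4 tumor groups, and fibroblast-like cells, named from collagen genes, held that of 15, 16 and 9 in the groups where they reached 50 cells. Neutrophil-like cells held that of 12 members in IR WT and 9 in IR cKO. Fibroblast-like cells had the highest P4ha2, at 86.9, 64.0 and 59.6 CPM in control WT, control cKO and IR WT, and high Ldha, at 1858, 1781 and 1714 CPM. Their Hilpda was low, at 26.4, 27.4 and 27.3 CPM, and their Hif1a stood at 70.3, 80.5 and 78.9 CPM. Dendritic cell-like cells were lower than macrophage-like cells for Hilpda (159.8, 196, 244 and 254 CPM) and had the highest Pfkp of any named class in tumor (390, 383, 374 and 353 CPM). NK cell-like cells were found in both tissues and are not myeloid. In them 8 of 12 members were higher in tumor in control WT, 4 of 4 in control cKO and 3 of 5 in IR WT, where 6.09%, 12.5% and 5.99% of all genes were higher. None was lower (11.9%, 8.81% and 8.15% of genes were), and the calls were all of glycolytic enzymes. How much of the tumor levels in these cells came from free RNA was not tested. In control WT, Aldoa stood at 139 and 587 CPM, Gapdh at 364 and 1031 CPM, Pgk1 at 81.4 and 299 CPM and Ldha at 233 and 563 CPM in blood and tumor.

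**Figure D3:**
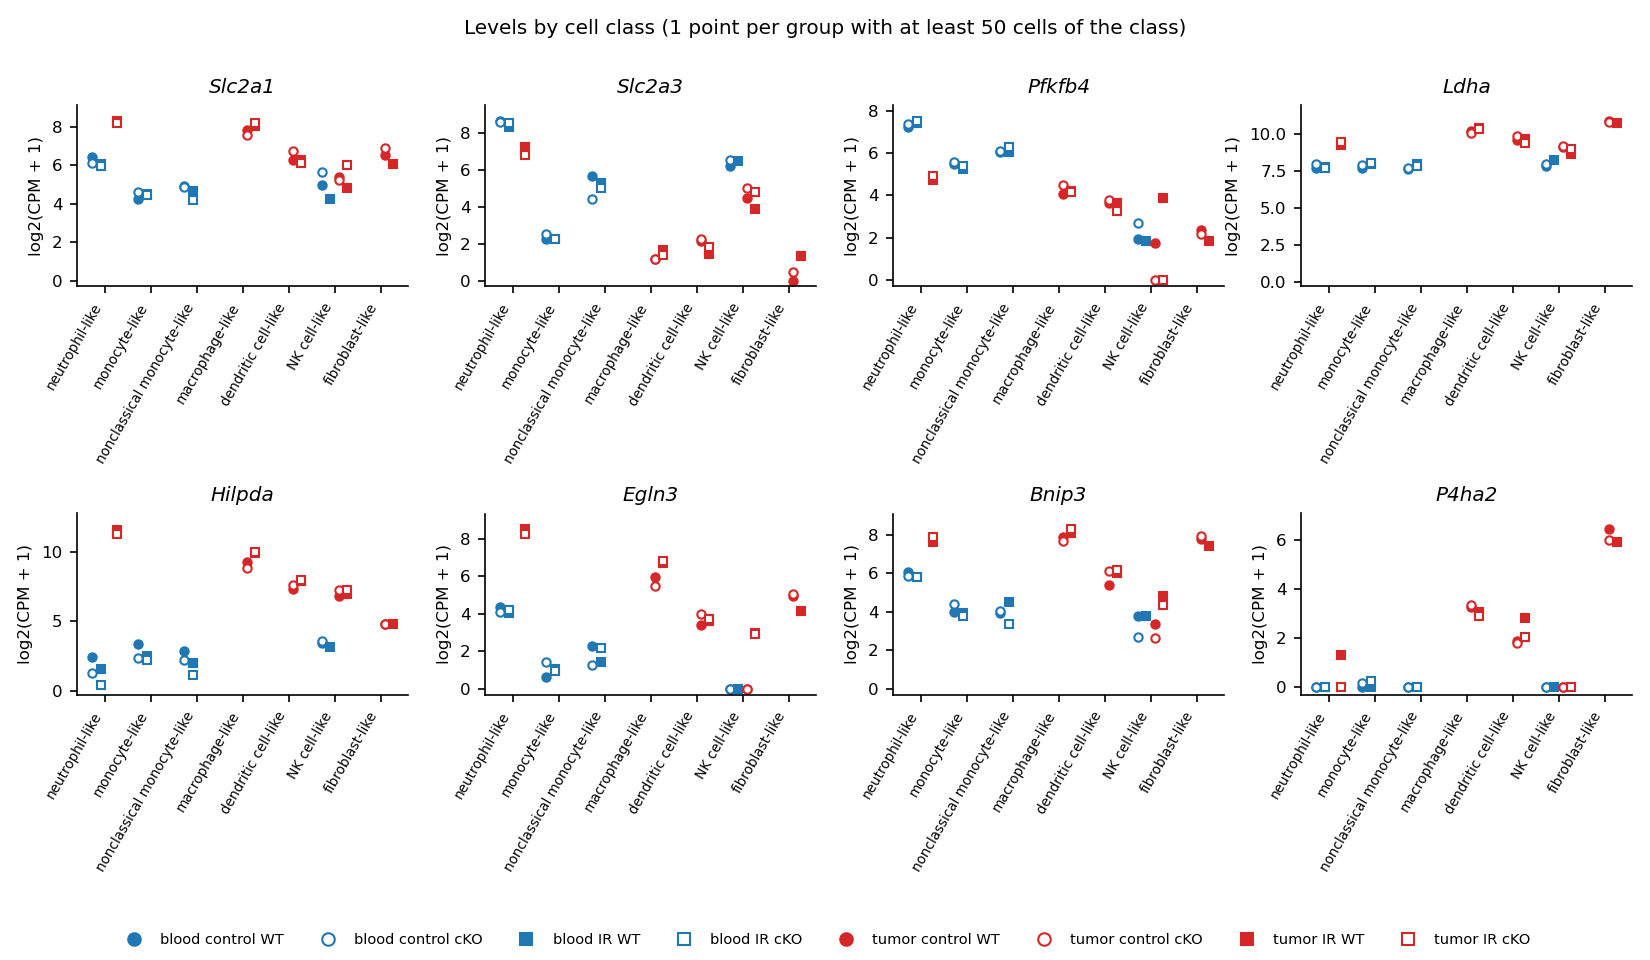
Levels of 8 members as log2(CPM + 1) in the named cell classes, with 1 point for each group that held at least 50 cells of the class (blue for blood, red for tumor). Hilpda reaches 3134 and 2473 CPM in neutrophil-like cells of irradiated tumors and stays below 11 CPM in every blood class, whereas Slc2a3 is highest in neutrophil-like cells of blood.

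Within the macrophage-like cells, 1 cluster stood out for the module. Its leading genes were Hspa1a, Hspa1b, Mmp13, Mmp12, Gpnmb and Hmox1, so that stress genes led it, and it raised 4 of 14 macrophage markers. It comprised 188, 72, 141 and 235 cells. It held the highest level of 19, 20, 18 and 21 of the 35 members among the 9, 9, 10 and 10 clusters of at least 50 cells in the tumor groups. The cluster was picked for its levels of the members, so that these counts describe it and add no separate evidence. The share of all genes that were highest in this cluster is not given. Hilpda stood at 1889, 1614, 2050 and 2246 CPM there and at 411, 400.3, 817 and 794 CPM in the largest macrophage-like cluster (leading genes Cdh1, Clec4n and Spp1). Slc2a1 stood at 581, 660.3, 637 and 644 CPM against 188, 192, 202 and 230 CPM, and Bnip3 at 605, 649, 649 and 646 CPM against 162, 173, 197 and 227 CPM. The carrier, the mitophagy receptor and the lipid droplet gene were each at least 2 times higher in the first cluster in every tumor group. Egln3 stood at 216, 252, 285 and 274 CPM, Ndrg1 at 629, 583, 475 and 525 CPM and Gapdh at 4376, 4271, 4036 and 4088 CPM in it. Ero1l, a hypoxia-inducible gene that is not a member, was among its 10 leading genes, although it was left out of the clustering like the members. Whether genes that stayed in the clustering followed the module was not tested.

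Counted per cell, the 17 glycolytic enzymes took a median of 0.300, 0.357, 0.343 and 0.362% of a cell's UMIs in blood and 0.840, 0.860, 0.892 and 0.962% in tumor. The 14 hypoxia-inducible members took 0.0498, 0.0469, 0.0465 and 0.0483% in blood and 0.111, 0.118, 0.136 and 0.159% in tumor. Macrophage-like cells spread widely, with the lowest decile of the control WT cells ending at 0.550% for the enzymes and the highest starting at 1.77%. Neutrophil-like cells of irradiated tumors spread more for the hypoxia-inducible genes, with medians of 0.193 and 0.202% and the highest deciles starting at 1.22 and 0.968%. These shares are ratios within a cell, and their spread includes counting error, which is larger in cells of few UMIs.

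Shares of cells with a UMI were compared after each cell was thinned to 1000 UMIs. Hilpda was found in 0.266% (0.531% unthinned) of neutrophil-like cells of blood IR WT and in 46.8% (53.3% unthinned) of those of tumor IR WT, whose median depths were 2745 and 1927.5 UMIs. In cKO the shares were 0.0460% (0.0918% unthinned) and 49.6% (55.3% unthinned). The thinned tumor shares had intervals of 41.1% to 52.5% and 43.0% to 56.2%. About equal parts of the tumor class therefore had and lacked a UMI at this depth. Of macrophage-like cells, 33.1% (67.4% unthinned), 26.5% (64.8% unthinned), 51.1% (79.9% unthinned) and 50.8% (79.7% unthinned) had one. As a guide to background from free RNA, 2 other classes are given, fibroblast-like cells, of which 1.74% (43.5% unthinned) did in control WT at a median depth of 26114 UMIs, and NK cell-like cells of tumor, of which 5.45% to 7.69% did at median depths of 2252 to 2611 UMIs. The fibroblast-like cells were far deeper, so thinned far more, and were from control tumors. Their share is therefore not a like background for neutrophil-like cells of irradiated tumors. Slc2a3 was found in 29.9%, 29.3%, 24.1% and 28.7% of neutrophil-like cells of blood (53.3% to 59.0% unthinned), in 10.7% (13.9% unthinned) and 7.33% (11.8% unthinned) of those of irradiated tumors, and in at most 0.251% of macrophage-like cells. Egln3 was found in 1.37% to 1.98% of neutrophil-like cells of blood and in 25% (35.8% unthinned) and 22.4% (31.3% unthinned) of those of irradiated tumors. Of NK cell-like cells 0% had one in blood (3086 to 3484 UMIs per cell in the median) and in control tumors, and 1.92% and 0.893% in irradiated tumors.

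**Figure D4:**
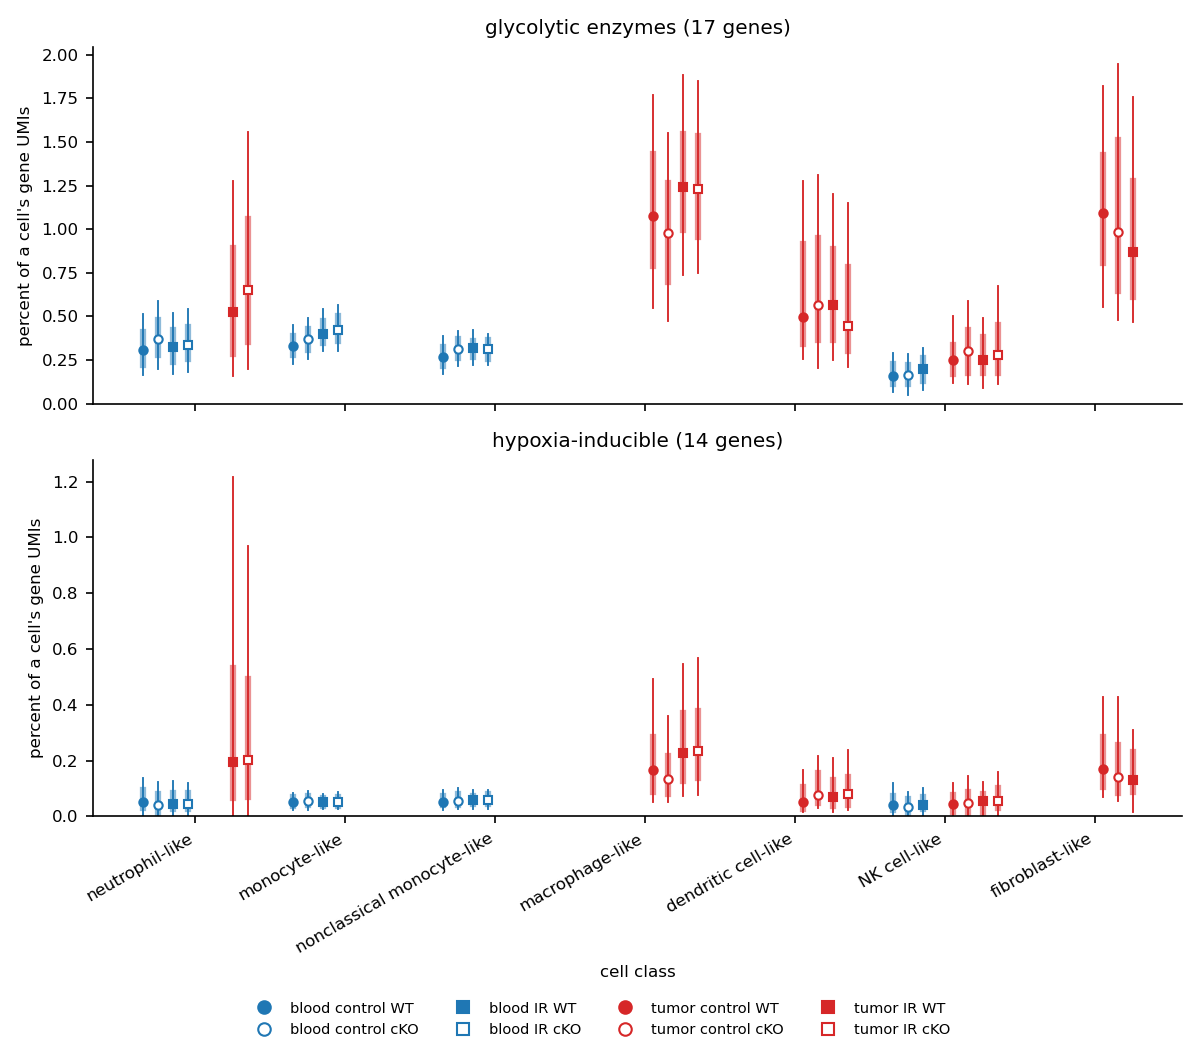
Percent of each cell's UMIs that came from the glycolytic enzymes and from the hypoxia-inducible members, for cells of the named classes in each group (point, median; thick bar, middle part of the cells from the first to the last quartile; thin line, without the lowest and the highest decile). Macrophage-like tumor cells have enzyme medians of 0.979% to 1.24%, and the blood classes lie at 0.423% or below.

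Genes of the same pathways outside the module were counted in the same way. Of 25 other glycolysis genes on a list drawn up with earlier results known, 14 or 15 were measured, 3, 4, 3 and 3 were higher in tumor, where 19.5%, 27.2%, 15.8% and 15.6% of all genes were, and 2, 2, 3 and 2 lower, where 15.5%, 16.4%, 16.3% and 16.2% of all genes were. These counts were near the shares of all genes. Pgm1, a phosphoglucomutase, and Slc16a1, a lactate carrier, were higher in all 4. The pentose phosphate pathway branches off after glucose phosphorylation and yields NADPH. Of its 7 genes none was higher in tumor and 2, 2, 3 and 2 were lower, beside the same shares of all genes. G6pdx, its first enzyme, stood at 89.7, 118, 104 and 115 CPM in blood and 30.8, 32.2, 32.7 and 38.1 CPM in tumor (log2 ratios -1.54, -1.87, -1.67 and -1.59). Taldo1, the transaldolase, stood at 1342, 1433, 1569 and 1602 CPM in blood and 381, 299, 406 and 387 CPM in tumor (log2 ratios -1.82, -2.26, -1.95 and -2.05). Of 24 other oxygen-sensing and hypoxia-inducible genes, 21 were measured, 9, 8, 10 and 10 were higher in tumor and 1 was lower, beside the same shares of all genes. These counts include Nos2 in each comparison. It had nearly no UMIs in blood control WT, so that there, once measured, it could only be called higher. The differences between these lists and the members were not tested. Among them Vegfa, an angiogenic factor, stood at 21.6, 8.58, 14.5 and 9.88 CPM in blood and 465, 355, 477 and 477 CPM in tumor, and Mif, a cytokine, at 64.7, 69.8, 57.3 and 60.5 and 1015, 1063, 889.5 and 911 CPM.

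In tumor, fewer members differed between IR and control than between tissues. In WT, 1 of 34 members measured was higher (2.6% of all genes) and 1 was lower (3.22%), with a median log2 ratio of IR to control of 0.08 for the members and -0.13 for all genes. In cKO, 5 of 35 were higher (5.18% of all genes) and 1 was lower (17.0%), with medians of 0.18 and -0.18. TMM scaling moved the median of all genes by 0.15 in WT and by 0.21 in cKO, and the share of higher genes among all called genes from 44.7% to 64.6% in WT and from 23.3% to 37.8% in cKO. Of the 34 members measured in both genotypes, 22 were above 0 in both and 8 below, and 26 and 4 under TMM scaling. These counts thus moved with the scaling, and the shares of all genes above and below 0 are not given. Only Slc2a3 was called higher in both (2.15% of all genes were) and only P4ha2 lower (2.33%). Markers of other cell types moved as well. In WT and cKO, neutrophil-like cells made up 0.719% and 1.4% of the control tumors and 10.6% and 6.57% of the irradiated ones. Fibroblast-like cells made up 4.6% and 11.7% against 2.6% and 1.2%, and macrophage-like cells 41.7% and 53.7% against 24.2% and 32.1%. Cells of no named class made up 38.8% and 23.8% against 55.5% and 50.6%. Among these, 1 cluster led by interferon-induced genes made up 2.08% and 1.03% of the control tumors and 26.1% and 24.4% of the irradiated ones.

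Both members called in the 2 genotypes were high in a tumor class whose share also differed, Slc2a3 in the neutrophil-like cells of IR tumors and P4ha2 in fibroblast-like cells. Slc2a3 stood at 3.17 CPM in control and 7.07 CPM in IR in WT and at 1.89 and 3.98 CPM in cKO, with log2 ratios of 1.14 (0.72 to 1.61) and 1.06 (0.55 to 1.62). Without the neutrophil-like clusters its WT ratio was -0.14, and in cKO fewer than 100 UMIs remained. P4ha2 stood at 19.3 CPM in control and 9.28 CPM in IR in WT and at 24.8 and 6.62 CPM in cKO, with log2 ratios of -1.05 (-1.32 to -0.80) and -1.90 (-2.17 to -1.65). Without the clusters of non-myeloid classes these were -0.60 and -0.90, so that neither was called. Summed UMIs of the fibroblast markers were 727 and 1228 CPM in tumor control and 434 and 212 CPM in tumor IR.

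Hilpda, Hif1a, Hk3 and Pfkfb3 had ratios above 0 after IR in both genotypes and passed the 2-fold limit in cKO alone. Hilpda had log2 ratios of 0.84 (0.80 to 0.88) in WT cells and 1.31 (1.27 to 1.35) in cKO cells, from 387 and 307 CPM in control to 695 and 761 CPM in IR. Hif1a had 0.45 (0.39 to 0.50) and 1.09 (1.04 to 1.14), respectively. Hk3, a hexokinase typical of myeloid cells, had 0.63 (0.53 to 0.73) and 1.35 (1.26 to 1.45), and Pfkfb3 had 0.48 (0.36 to 0.61) and 1.52 (1.39 to 1.66). Egln3 had 0.56 (0.44 to 0.68) and 0.95 (0.84 to 1.06) and was not called. The difference between genotypes in these ratios was not tested. Without the clusters of non-myeloid classes the ratios were 0.71 and 0.90 for Hilpda, 0.35 and 0.83 for Hif1a, 0.47 and 0.90 for Hk3, and 0.33 and 1.09 for Pfkfb3, so that of these 4 genes only Pfkfb3 in cKO remained past the limit. Without the neutrophil-like clusters those of Hilpda were 0.67 and 1.26. Aldoc was the enzyme with the lowest ratios, -0.82 (-1.01 to -0.63) and -0.84 (-1.0 to -0.68). The abundant enzymes hardly differed, with ratios of 0.01 and 0.08 for Gapdh, 0.02 and 0.04 for Pgk1, and -0.10 and -0.20 for Ldha.

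**Figure D5:**
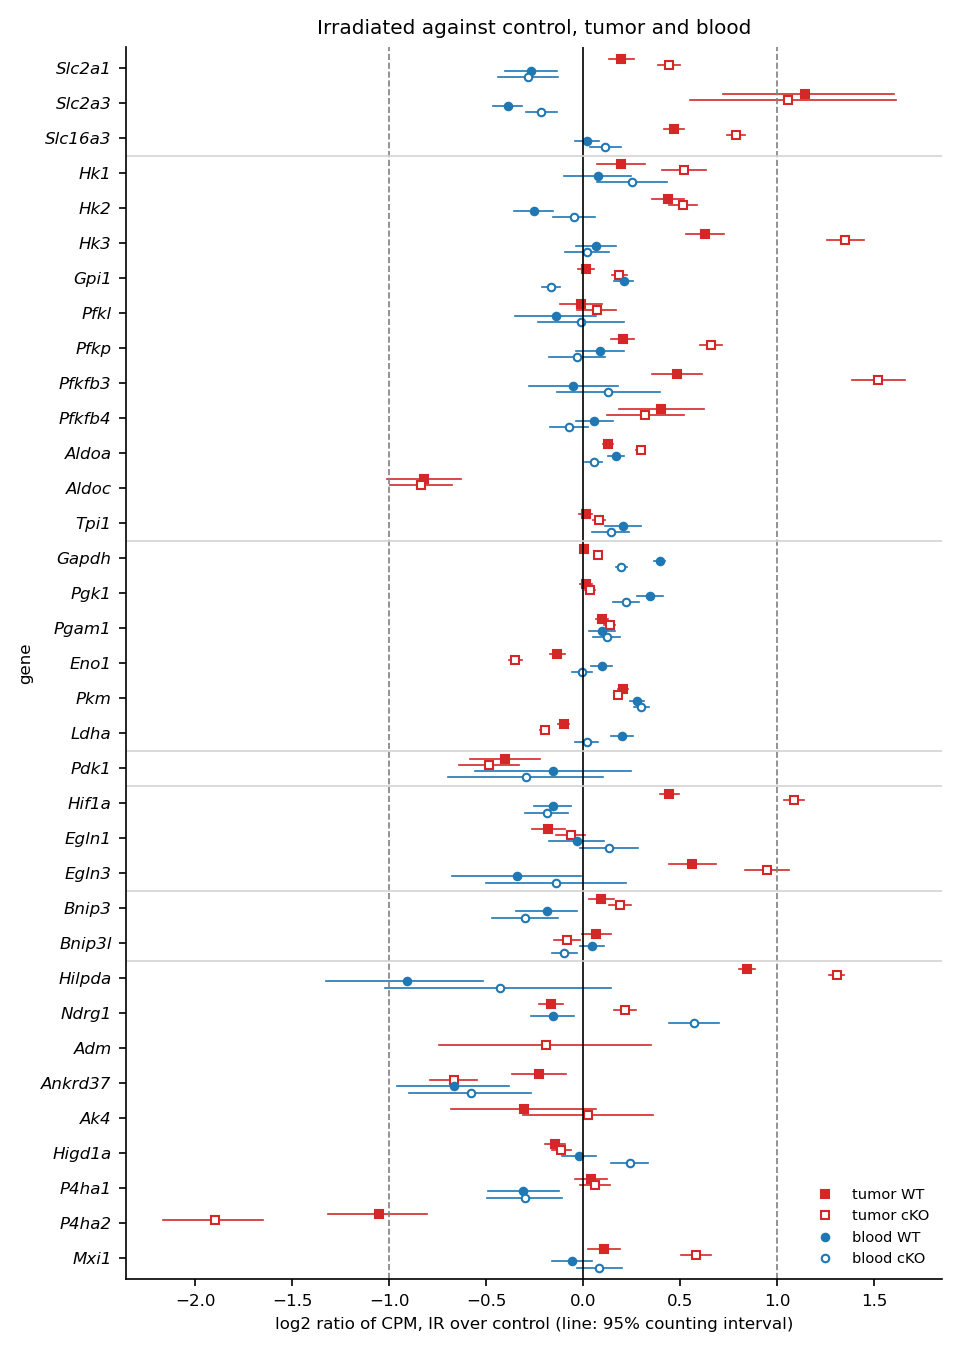
Log2 ratio of IR to control for each member (rows, by role) in tumor and blood for both genotypes (symbols), with 95% counting intervals as bars and the 2-fold limits as lines. In tumor Slc2a3 and Hilpda lie to the right and P4ha2 to the left, and nearly all blood values lie close to 0.

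Within macrophage-like cells most members had ratios of IR to control above 0. The share of all genes above 0 is not given, so the medians of all genes stand beside those of the members. In WT, 28 of 33 members measured were above 0, with a median of 0.18 against -0.05 for all genes, and none was called (1.38% of genes were higher and 1.63% lower). In cKO, 28 of 33 were above 0, with a median of 0.43 against -0.04, and 2 were called higher (3.26% of genes were). These were Hilpda, at 625, 448, 996 and 1046 CPM, and Egln3, at 61.1, 43.9, 105 and 110 CPM. Their log2 ratios were 0.67 (0.62 to 0.72) and 0.78 (0.62 to 0.94) in WT and 1.22 (1.18 to 1.27) and 1.32 (1.18 to 1.48) in cKO. Hif1a stood at 303, 227, 395 and 437 CPM in the class and Bnip3 at 233, 206, 275 and 310.4 CPM. For all 4 genes both IR groups were above both control groups, and the share of all genes for which this held is not given. The clusters that made up the class differed in number between the groups. The largest held 662, 582, 541 and 813 of its cells, the stress-gene cluster 188, 72, 141 and 235, a cluster led by Ccl8, Fcrls and Pf4 159, 339, 62 and 142, and one led by the cell cycle genes Pclaf, Mki67 and Stmn1 34, 155, 8 and 10. The ratios within clusters were unequal. In the largest they were 0.99 in both genotypes for Hilpda and 0.76 and 0.83 for Egln3, so that neither passed the limit. Aldoc had a ratio of -1.01 there in cKO. In the stress-gene cluster the ratios were 0.12 and 0.48 for Hilpda and 0.40 and 0.12 for Egln3. Hk3 had a ratio of 1.15 there in WT and Hif1a of 1.07 in cKO. In the Ccl8 cluster Hilpda had 0.60 (0.42 to 0.78) in WT and 1.26 (1.15 to 1.37) in cKO and Egln3 1.67 (1.21 to 2.17) in cKO, and both were past the limit in cKO, as were Hk3 with 1.06 and Hif1a with 1.37 (4 of 30 members higher, beside 3.93% of genes), whereas Aldoc was lower with -1.12 (6.96% of genes). Egln3 held fewer than 100 UMIs there in WT. The cell cycle cluster had too few cells after IR to compare. No member was called in dendritic cell-like cells of either genotype (24 measured) or in fibroblast-like cells of WT (28 measured), where 2.16% and 3.59% (dendritic cell-like WT and cKO) and 1.9% (fibroblast-like) of genes were higher. None of 10 and 8 was called in NK cell-like cells of tumor in WT and cKO (0.528% and 1.8% of genes were higher).

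In blood, no member passed the 2-fold limit after IR. The members measured were 31 in either genotype, and 0.348% of genes were higher and 0.974% lower in WT and 0.422% and 1.0% in cKO. The median log2 ratios were -0.02 and -0.01 for the members and 0.03 and 0.07 for all genes. In both genotypes 10 members were above 0 and 11 below, and 7 and 11 under TMM scaling, and the shares of all genes are not given. The former were mostly enzymes, such as Gapdh with log2 ratios of 0.40 (0.37 to 0.42) and 0.20 (0.17 to 0.23) and Pgk1 with 0.34 (0.28 to 0.41) and 0.22 (0.16 to 0.29). The latter held the hypoxia-inducible genes Hilpda, with -0.91 (-1.32 to -0.51) and -0.43 (-1.02 to 0.14), and Ankrd37, with -0.67 (-0.96 to -0.38) and -0.58 (-0.90 to -0.27). Among neutrophil-like blood cells 1 of 29 members was lower in WT, Ankrd37 with -1.10 (0.373% of genes were lower), and none of 28 was called in cKO. Among monocyte-like blood cells none of 27 and 26 was called.

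Between the genotype labels, 1 member passed the limit in 1 of the 4 comparisons. In cKO against WT, none of 31 members was higher and 1 was lower in blood control (0.675% of genes were higher and 1.57% lower). This member was Hilpda, at 6.98 CPM in WT and 3.28 CPM in cKO, with a log2 ratio of -1.08 (-1.54 to -0.65). None of 31 was called in blood IR (0.135% and 0.488% of genes), none of 35 in tumor control (3.47% and 1.34%), and none of 34 in tumor IR (0.209% and 1.03%). In tumor control, TMM scaling moved the share of higher genes among all called genes from 72.1% to 59.7%. The largest differences in tumor control were those of Pfkfb3, -0.77 (-0.92 to -0.62), Slc2a3, -0.73 (-1.33 to -0.17), and Hif1a, -0.46 (-0.51 to -0.40). In tumor IR the same genes had 0.27 (0.16 to 0.38), -0.82 (-1.21 to -0.45) and 0.19 (0.14 to 0.23). Of the 31 members measured in all 4 comparisons, Gpi1, Tpi1, Pgk1, Pgam1 and Pdk1 were above 0 in every one (2 of these, Tpi1 and Pdk1, also under TMM scaling), with Pgk1 at 0.32, 0.20, 0.04 and 0.06, and none was below 0 in all 4. The share of all genes above 0 in every comparison is not given. No member was called in all 4 (0.0227% of genes were higher and 0.0113% lower). Among neutrophil-like cells of blood control Ndrg1 was lower in cKO, with -1.05 (-1.24 to -0.86), as 1 of 29 members where 2.06% of genes were lower.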

How the data were processed

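Gene and hashtag counts of 4 libraries of sorted mouse cells were analysed. Per the file headers and the study's methods, the authors aligned reads to mm10 with Cell Ranger and deposited raw UMI counts of every barcode, without normalization (the file headers name version 4, the submitters' processing notes 6.0.1). No columns of other samples were left out (0). Barcodes were called as cells by an order-of-magnitude threshold or a test against ambient RNA, and kept with at least 500 UMIs, 200 genes, at most 25% mitochondrial UMIs and 20 hashtag UMIs. Cells were WT where B0301 UMIs were at least those of B0302, and cKO where B0302 UMIs were at least 4 times those of B0301. The rule was thus looser for WT. With the margin of 4 times both ways, 1004 of 2502 WT cells remained in tumor control and 2409 of 3110 in tumor IR. In blood 4324 of 4409 remained in control and 3784 of 3847 in IR. The 6% with the highest Scrublet scores (scanpy 1.11.5) in each library were removed as doublets. Seurat 5.3.0 clustered the cells (2000 variable genes without the members, 40 components, resolution 0.8), and clusters were named from marker lists. UMIs were summed per group or class, and ratios carry 1 added UMI. With 1 pool per group no test was made, and Poisson, conditional binomial and Clopper-Pearson intervals cover counting error only. Scripts were tested on simulated data. Members named in full were those past the 2-fold limit in all 4 tumor and blood comparisons or in both genotypes of an IR comparison, and the 6 most abundant. The members and lists were chosen with earlier results of these data known. Alternatives were TMM scaling (edgeR 4.0.16), other minimums, added UMIs, hashtag rules (HTODemux), cell filters, resolutions, and clusters left out. The authors' cell annotation was not used here, and DoubletFinder was not run.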

Additional observations from a re-analysis of the deposited data

Results flagged for a closer look

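Slc2a3, the gene of GLUT3, had log2 ratios of IR to control of opposite sign in the tissues, 1.14 in tumor WT against -0.39 in blood WT, and 1.06 in tumor cKO against -0.22 in blood cKO. The difference was not tested, since each group was 1 pool. Neutrophil-like cells, which held most Slc2a3, were 10.6% and 6.57% of the cells in tumor IR and 0.719% and 1.4% in tumor control.

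Hif1a had a log2 ratio of IR to control of 1.09 in tumor cKO against -0.19 in blood cKO, and this difference was likewise not tested.

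Hilpda had a log2 ratio of cKO to WT of -1.08 in blood control against 0.13 in tumor IR. The blood value rests on few UMIs, and the difference between the groups was not tested.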

How the results depend on the processing

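No paired analysis was possible because within each comparison a group was 1 pool of mice with 1 library, so that the groups compared share no second replicate number. A fit over several comparisons together, with tissues or treatments taken as replicates of a pair, was not made. Of 209 recounts of members past the limit under other settings, 187 stayed within 1.5 times and 22 did not. The counts for tumor against blood stayed at 25 to 29, 24 to 28, 27 to 30 and 29 to 31 members. For IR in tumor WT, 2 members became 1 under TMM scaling, HTODemux, the same margin for both hashtags, without non-myeloid classes and without neutrophil-like clusters. For IR in tumor cKO, 6 became 2 without non-myeloid classes. With genotypes pooled, 3 became 0 without the hashtag minimum. For cKO against WT, 1 in blood control became 2 without a minimum of UMIs, and 0 without the Scrublet removal or the neutrophil-like clusters. In blood IR 0 became 1 without a minimum of UMIs, and in tumor IR 0 became 1 with at least 20 UMIs, without a minimum, with HTODemux and without non-myeloid classes. Within classes, NK cell-like counts of tumor against blood went from 4 to 9 (control cKO) and from 3 to 8 (IR WT) at resolution 0.4. Macrophage-like counts for IR went from 0 to 1 in WT at resolution 0.4, and from 2 to 4 in cKO under TMM scaling, at resolution 1.2 and with the members left in the clustering. Monocyte-like counts for IR in blood WT went from 0 to 1 with the members left in. Of 6013 values of single members, 5223 moved by less than their counting interval and 789 by more. The value of Slc2a3, log2 ratio, IR against control, tumor WT reversed from 1.14 to -0.14 without the neutrophil-like clusters, which was chosen after the data were seen. The cause of these changes was not tested. Depth limits members under 100 UMIs, such as Adm, and intervals hold no spread between mice.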

Other observations

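Among hypoxia-related genes outside the module, Nos2, the inducible nitric oxide synthase of activated myeloid cells, was past the 2-fold limit after IR in tumor in both genotypes. It stood at 112 CPM in control and 229.8 CPM in IR in WT and at 66.3 and 338 CPM in cKO, with a log2 ratio of 2.35 in cKO. Its level in blood was 0.0471 CPM in control WT.

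In an unnamed cluster of low depth led by Gm26917, Gm42418 and mitochondrial genes, 12 of 15 members measured were higher in tumor than in blood in control WT and 11 of 12 in control cKO, where 47.9% and 38.3% of all genes were higher. In another unnamed tumor cluster, led by interferon-induced genes such as Ifit2 and Rsad2, Hilpda stood at 945 CPM in control WT, 742 CPM in IR WT and 811 CPM in IR cKO. The cluster held 52, 812 and 914 cells of these groups.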
